A study of Homo sapiens with 92 samples.

Results

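New RNA was compared between cells treated for 90 min to deplete NIPBL, counted from their release from a mitotic arrest, and cells given the vehicle for the same time. The comparison rests on 6 of the 92 libraries of the series, 3 with dTAGV-1 and 3 with DMSO, taken by their labels. All 6 came from NIPBL-D7, 1 clone of hTERT RPE-1, human cells of the retinal pigment epithelium made immortal with telomerase, with the genotype mGreenLantern-P2A-FKBP12(F36V)-NIPBL. Both arms carry this degron, so the arms differ in the compound and not in the genotype. dTAGV-1 brings the FKBP12(F36V) tag to the VHL ubiquitin ligase, which marks the tagged protein for destruction, and DMSO is its solvent. Cells of both arms went through a double thymidine block and 120 min of nocodazole at 20 ng/ml, were shaken off in mitosis and were released into medium with dTAGV-1 or DMSO. 4-thiouridine (4sU) was present at 100 µM for the last 15 min. The general protocol has the drug present during nocodazole as well, whereas the treatment label of each of these 6 libraries does not. The sources used here do not settle which holds, and the treatment labels are followed. The labels of these 6 libraries give a treatment of 90 min alone, whereas those of a parallel series, called the mitosis series here, give 120 min in nocodazole and then 90 min. The libraries at 30, 60 and 120 min of the same release series, again 3 per arm and time, serve below as further libraries. So do the 8 libraries of the mitosis series at 90 min, 4 per arm. The former share 1 fit with the 6, and so its estimate of spread, and the latter share another fit with them.

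NIPBL helps to load the cohesin ring onto chromosomes and drives cohesin to extrude DNA into loops, which can bring distant enhancers and promoters together. Cohesin leaves most of the chromosome arms during mitosis, and loops form anew as cells enter G1, while transcription starts again. In SLAM-seq, cells build 4sU into RNA made during the label, iodoacetamide alkylates it, and sequencing reports labelled positions as T-to-C conversions. Reads with a conversion are called new RNA here, and all reads report the RNA present.

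Converted reads ran from 1.74 to 4.16 M per library with DMSO and from 2.00 to 5.06 M with dTAGV-1, of 30.8 to 66.8 M reads in all, with M for mega. The percent of reads with a conversion was 6.57% ± 0.909 with DMSO and 6.91% ± 0.658 with dTAGV-1 (SD, n = 3), which differed by less than the spread between libraries (two-sided exact permutation test, p = 0.6, where 0.1 is the smallest that 3 against 3 can give). No unlabelled library was used, so the part of these conversions that arises without 4sU was not measured here, and how T-to-C variants of the genome were handled is not given in the sources used here. All 12 genes listed as typical of RPE-1 had reads, and their level in all reads, as counts per 1 M reads (CPM), summed to 12400 to 13300 in each of the 6 libraries. The 7 lineage factors of the retinal pigment epithelium summed to 295 to 321 CPM with DMSO and 325 to 421 CPM with dTAGV-1, and 11 genes of the mature epithelium to 13.6 to 18 CPM in both arms. Neuron markers summed to 100 to 123 CPM and fibroblast and smooth muscle markers to 151 to 215 CPM, with arms that overlapped. Single genes made up much of several sums. MAP2 of the neuron list had 98.2 to 120 CPM, and in the fibroblast list TAGLN had 77.4 to 129 and ACTA2 50.9 to 65 CPM. LRAT of the mature epithelium had 11.7 to 16.7 CPM and FN1 of the RPE-1 list 6250 to 7020 CPM. Members such as TUBB3 (at most 0.24 CPM), DCN (at most 0.26 CPM) and KRT19 (at most 0.195 CPM) were near 0. Cardiomyocyte, endothelial, immune and pluripotent lists each summed to at most 18.2 CPM, and SOX2 had no read. The part of the lineage factors in the results was not tested. In bulk libraries, fewer cells with a transcript and less transcript per cell cannot be told apart.

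NIPBL itself, a gene of the cohesin list, had arms that overlapped. Its converted reads were 389, 311 and 349 CPM with DMSO and 396, 317 and 326 CPM with dTAGV-1 (log2 change -0.01 ± 0.18, SE, edgeR adjusted p = 0.99999). Its sign differs between scalings. The degron acts on the protein, so these values say nothing about how far NIPBL protein was depleted.

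New RNA of 84 genes was lower and that of 4 genes was higher with dTAGV-1, of 13924 genes tested. These calls, at an adjusted p under 0.05 in edgeR's quasi-likelihood test, are 0.632% of the genes tested (0.603% lower, 0.0287% higher), and 779 genes had an unadjusted p under 0.05. Of the 84 falls, 26 had a log2 change of -1 or less, 55 lay between -1 and -0.5, and 3 were smaller. In all 88 the 3 libraries of one arm lay apart from the 3 of the other, which 6.76% of all tested genes did with dTAGV-1 lower and 5.26% with dTAGV-1 higher. The median log2 change was -0.84 over the 84 genes and -0.00397 over all genes tested. Among the 3728 genes with an average log2 CPM of at least 6, a level that most of the 84 reach, the median was -0.084. The spread behind these p-values was estimated in the fit shared by the release libraries of all times, not from those at 90 min alone. With the 6 libraries at 90 min fitted alone, the 88 calls became 58. The labels do not say whether replicates were separate cultures, so p-values measure only the spread between libraries of the same arm and time, which may be technical.

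The count of calls depended on the scaling and on single libraries. With library sizes taken from all reads in place of TMM over converted reads, 5 genes were lower and 1 higher, and the median of all genes moved from -0.00397 to 0.17, so that values below are to be read relative to the typical gene. With TMM over the better covered genes alone, 59 were lower and 8 higher. The 88 became 36 without DMSO replicate 1, 52 without DMSO replicate 2 and 59 without DMSO replicate 3. They became 44 without dTAGV-1 replicate 1, 43 without dTAGV-1 replicate 2 and 46 without dTAGV-1 replicate 3. None of the 88 changed sign in these 6 fits, but with arms that lie apart this was all but fixed in advance.

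**Figure D1:**
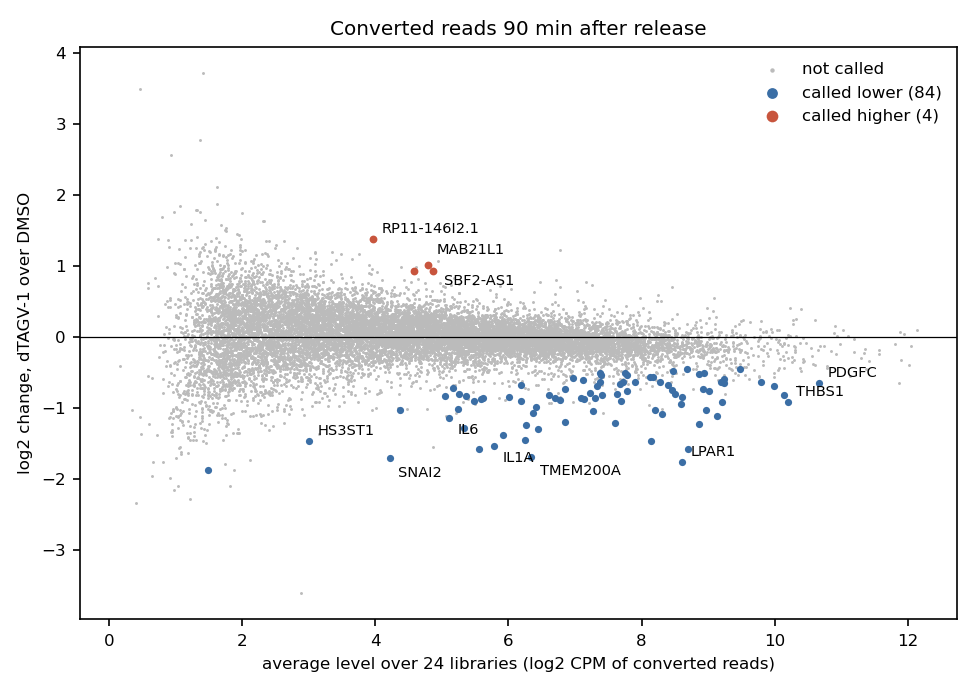
Each point is 1 of 13924 genes, with its average log2 CPM of converted reads over the 24 release libraries on the x axis and its log2 change at 90 min on the y axis. The 84 genes called lower (blue) lie mostly to the right, among well covered genes, with LPAR1 lowest of those with many reads, and the 4 called higher (red) have average log2 CPM between 3.97 and 4.87.

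LPAR1, a receptor for lysophosphatidic acid, a lipid signal found in serum, fell most among named genes. It spans chr9:110873263-111038458 on the minus strand (hg38). Its converted reads were 529.9, 596 and 518 CPM with DMSO and 145, 176 and 161 CPM with dTAGV-1. Every dTAGV-1 library was far below every DMSO library (log2 change -1.77 ± 0.13, adjusted p = 1.78e-08), and the call held without each of the 6 libraries and under each of 10 other settings. The other cell surface and signalling genes among the largest falls were of several kinds. CD274, which encodes PD-L1, a ligand that restrains T cells, stood at 101, 102 and 75.3 CPM with DMSO and at 34, 41.6 and 26.9 CPM with dTAGV-1 (-1.45 ± 0.17, adjusted p = 2.79e-05). OXTR, the oxytocin receptor, had 68.5, 79.6 and 132 CPM with DMSO and 31.5, 38.3 and 35.5 CPM with dTAGV-1 (-1.38 ± 0.24, adjusted p = 0.0029). DMSO replicate 3 was the high library for OXTR, and the arms did not overlap. TMEM200A, a membrane protein gene, fell by 1.69 on the log2 scale (± 0.17, adjusted p = 6.92e-06). SOCS5, a member of the family that restrains cytokine signalling, fell by 1.21 (± 0.16, adjusted p = 0.000134).

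Enzymes and regulators of transcription made up another part of the largest falls. UGCG, which makes glucosylceramide, the first step of most glycosphingolipids, lies at chr9:111896766-111935369 on the plus strand. It had 564, 730.1 and 522 CPM with DMSO and 179, 184 and 243 CPM with dTAGV-1 (-1.58 ± 0.17, adjusted p = 1.78e-05). TIPARP, an ADP-ribosyltransferase that acts back on the aryl hydrocarbon receptor, lies at chr3:156673235-156706770 on the plus strand. It had 478, 395 and 368 CPM with DMSO and 144, 144 and 161 CPM with dTAGV-1 (-1.47 ± 0.16, adjusted p = 1.88e-05). For both genes the highest dTAGV-1 library stayed well below the lowest DMSO library. ELL2, a subunit of the super elongation complex, stood at 621, 606 and 595 CPM with DMSO and at 228, 233 and 319.7 CPM with dTAGV-1 (-1.22 ± 0.14, adjusted p = 3.32e-05). An opposite-strand gene overlaps ELL2, and its own log2 change was -0.31. HS3ST1, a heparan sulfate sulfotransferase, was low in both arms, at 8.23 to 11.5 CPM with DMSO and 3.09 to 3.78 CPM with dTAGV-1 (-1.47 ± 0.32, adjusted p = 0.0255), and its call was lost without any of the 6 libraries. RNF152, a ubiquitin ligase gene, fell by 1.29 (± 0.15, adjusted p = 3.36e-05).

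**Figure D2:**
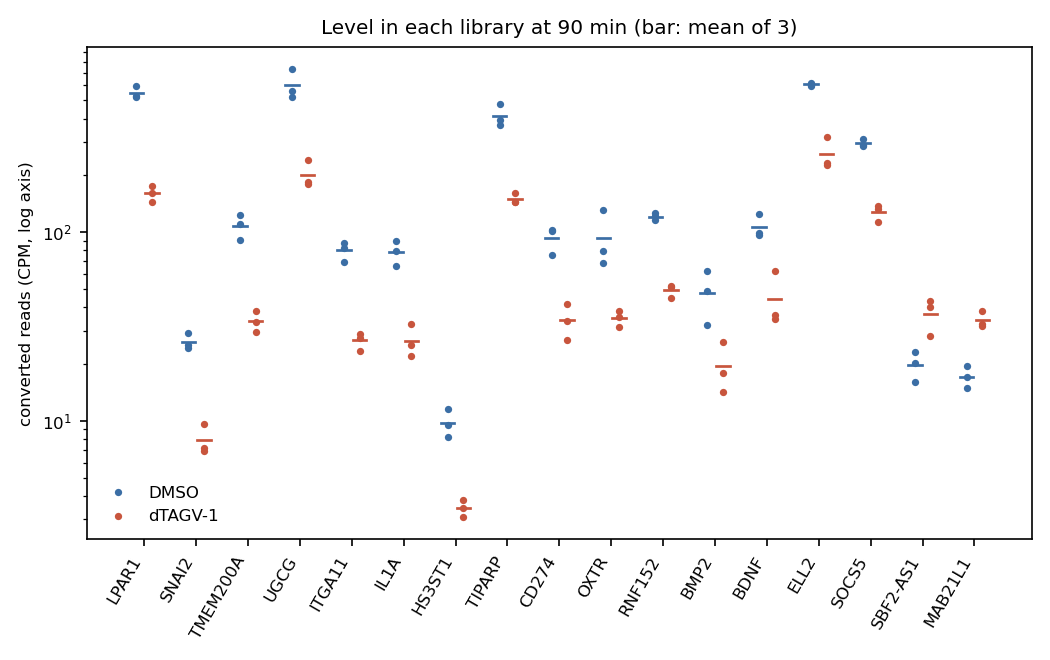
Converted reads in CPM, on a log axis, in each of the 3 DMSO (blue) and 3 dTAGV-1 (red) libraries at 90 min, for the 15 largest named falls and the 2 named rises, with a bar at the mean. The points of both arms lie apart in each gene because the naming rule required it. For LPAR1 they lie at 518 to 596 CPM against 145 to 176 CPM.

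The stretches upstream of 5 genes, a receptor, 2 enzymes and 2 cytokines, are shown because they are genes of different roles that were called lower and their promoters differ in make-up. They are bases 200 to 1 before the RefSeq start (GRCh38.p14), on the gene's strand. Gene bounds in the deposited files can lie further out or further in than that start. For LPAR1 the deposited bound, 111038458, lies further in, so the shown stretch does not adjoin it. Capitals mark a GC box (GGGCGG, either strand) in the first 3, an AP-1 site (TGANTCA) in IL1A and an NF-kB site, by its name, in IL6.
LPAR1: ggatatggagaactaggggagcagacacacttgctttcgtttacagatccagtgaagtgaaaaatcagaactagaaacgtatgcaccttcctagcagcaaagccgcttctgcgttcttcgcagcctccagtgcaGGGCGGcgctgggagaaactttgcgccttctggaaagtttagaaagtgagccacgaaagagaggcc
UGCG: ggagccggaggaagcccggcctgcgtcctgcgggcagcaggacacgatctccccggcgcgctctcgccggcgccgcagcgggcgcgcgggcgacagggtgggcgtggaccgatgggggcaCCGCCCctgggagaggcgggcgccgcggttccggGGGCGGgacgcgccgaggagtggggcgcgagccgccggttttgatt
TIPARP: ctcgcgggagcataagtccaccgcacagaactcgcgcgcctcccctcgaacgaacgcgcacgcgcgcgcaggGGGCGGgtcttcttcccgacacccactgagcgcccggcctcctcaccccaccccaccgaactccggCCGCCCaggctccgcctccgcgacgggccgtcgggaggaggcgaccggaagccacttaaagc
IL1A: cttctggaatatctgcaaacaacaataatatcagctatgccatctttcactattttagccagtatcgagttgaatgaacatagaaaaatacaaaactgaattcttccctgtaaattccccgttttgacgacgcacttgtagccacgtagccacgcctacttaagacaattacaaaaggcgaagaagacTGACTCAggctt
IL6: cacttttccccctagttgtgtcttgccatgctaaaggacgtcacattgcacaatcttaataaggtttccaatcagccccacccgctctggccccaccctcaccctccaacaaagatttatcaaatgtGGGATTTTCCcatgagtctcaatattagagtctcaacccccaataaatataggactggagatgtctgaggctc

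The shown stretches for LPAR1, UGCG and TIPARP lie at chr9:111038999-111039198, chr9:111896614-111896813 and chr3:156674390-156674589, and those for IL1A and IL6 at chr2:112784494-112784693 and chr7:22727000-22727199. A RefSeq window of 250 bases before to 50 after the start matched 67 of the 84 genes by name and 9065 of all tested genes. The GC box occurred in 47 of the 67 windows (70.1%, against 68.7% of all). A TATA box (TATAAA, gene strand) occurred in 6 of them (8.96%, against 3.55%) and an NF-kB site in 2 (2.99%, against 1.35%). An AP-1 site occurred in 1 (1.49%, against 4.63%), a TEAD site (GGAATG) in 6 (8.96%, against 10.8%), an E-box (CACGTG) in 4 (5.97%, against 9.96%), and a cAMP response element (TGACGTCA) in 0 (against 3.4%). All but the TATA box were read on both strands. These are matches of letters, chosen after the calls were seen, with no test.

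The inflammatory list held 4 genes that fell, of 20 tested, and none that rose. Of all genes tested 0.603% were called lower and 0.0287% higher. The lower quartile of the average log2 CPM was 6.26 over the 84, above the upper quartile of 6.13 over all genes tested. Among well covered genes the share called lower is therefore above 0.603%, which holds for this list and for those below. The median log2 change over the list was -0.117. With library sizes from all reads 1 was called and the median was 0.057, and with TMM over the better covered genes 2 were called and it was -0.0142. IL1A, which encodes interleukin 1 alpha, an alarm cytokine, lies at chr2:112773915-112784590 on the minus strand. It had 79.8, 66.1 and 89.9 CPM with DMSO and 22.1, 32.5 and 25.3 CPM with dTAGV-1 (-1.53 ± 0.16, adjusted p = 7.24e-06). IL6, a cytokine of the acute response, lies at chr7:22725884-22732002 on the plus strand and had 46.4, 43.2 and 49.8 CPM against 14.3, 22.3 and 24.7 CPM (-1.14 ± 0.24, adjusted p = 0.0247). Both cytokines had arms well apart, but the call of IL6 was lost without any of the 6 libraries and that of IL1A was not lost without any. In all reads IL6 changed by -1.17 (± 0.17), much as in new RNA, and its converted reads relative to its all reads did not pass. IRAK2, a kinase below the interleukin 1 receptor, fell by 1.03 (± 0.21, adjusted p = 0.0131), a call that held without 2 of the 6 libraries and under 4 of 10 other settings, of which DESeq2's test gave no adjusted p. NFKBIZ, an inducible IkB protein that helps to switch on IL6, fell by 0.80 (± 0.18, adjusted p = 0.0394). IL1B had a log2 change of -0.62 (adjusted p = 0.17) and CXCL8, a chemokine, of 0.12. The feedback inhibitors NFKBIA and TNFAIP3 had log2 changes of 0.30 and 0.04 and did not pass the test.

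Of 20 secreted growth factors 3 were called lower, against 0.603% of all genes tested and a higher share of well covered ones. Below 0 lay 17 of the 20, and 7050 of all 13924 genes. Over the genes with an average log2 CPM of at least 6 the median was -0.084. Among the 17 lists the growth factors had the lowest median, at -0.362. This median stayed below 0 under each of the other scalings (-0.347 with DESeq2's size factors, -0.149 with library sizes from all reads and -0.268 with TMM over the better covered genes), but with library sizes from all reads 0 of its genes were called. BDNF, a neurotrophin, had 96.3, 99.5 and 125 CPM with DMSO and 36.4, 34.5 and 62.4 CPM with dTAGV-1 (-1.24 ± 0.25, adjusted p = 0.016). KITLG, the ligand of the KIT receptor, had 90.6, 110 and 85.7 CPM with DMSO and 47.7, 52.1 and 45.2 CPM with dTAGV-1 (-0.99 ± 0.19, adjusted p = 0.00961). PDGFC, a platelet-derived growth factor and the gene with the most new RNA among the 84, had 1984 to 2196 CPM with DMSO and 1269 to 1474 CPM with dTAGV-1 (-0.65 ± 0.14, adjusted p = 0.0246). The 3 calls were each lost without some of the 6 libraries, that of PDGFC without any of them. EDN1 (-1.08, adjusted p = 0.17), HBEGF (-1.02, adjusted p = 0.15) and VEGFC (-0.49, adjusted p = 0.075) did not pass.

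In the TGF-beta and BMP list 3 of 23 genes were called lower, a ligand, a receptor and an activator. Of all genes tested 0.603% were, and a higher share of well covered ones. BMP2, a bone morphogenetic protein, had 49, 62.4 and 32.2 CPM with DMSO and 14.3, 26.3 and 18 CPM with dTAGV-1 (-1.29 ± 0.24, adjusted p = 0.00769), and its call was lost without either of DMSO replicates 1 and 2 or dTAGV-1 replicates 1 and 3. TGFBR2, the type II receptor for TGF-beta, had 256, 246 and 228 CPM with DMSO and 135, 146 and 146 CPM with dTAGV-1 (-0.77 ± 0.12, adjusted p = 0.000976). THBS1, thrombospondin 1, a matrix protein that can activate latent TGF-beta, had 1653, 1221 and 1617 CPM with DMSO and 833, 731 and 820 CPM with dTAGV-1 (-0.91 ± 0.14, adjusted p = 0.000962). For THBS1 the lowest DMSO library, replicate 2, was still above every dTAGV-1 library. Targets of the pathway such as SMAD7 (0.41) and ID1 (0.32) did not pass. The list's median was -0.0846, and it was 0.0847 with library sizes from all reads and 0.0126 with TMM over the better covered genes. With library sizes from all reads 0 of its genes were called, and with TMM over the better covered genes 3.

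Of the extracellular matrix list 5 of 21 genes fell, THBS1 among them, against 0.603% of all genes tested and a higher share of well covered ones. The list's median was -0.215. With library sizes from all reads it was -0.00247 and 0 of the 21 were called. With TMM over the better covered genes 2 were called. HAS2, a synthase of hyaluronan, fell by 0.88 (± 0.19, adjusted p = 0.0247), with 45 to 67.1 CPM with DMSO and 24.1 to 32.1 CPM with dTAGV-1. The call of HAS2 held without 1 of the 6 libraries and under 5 of 10 other settings. LAMC1, the gamma 1 chain of most laminins, had 668, 613 and 623 CPM with DMSO and 369.6, 399.8 and 373 CPM with dTAGV-1 (-0.74 ± 0.12, adjusted p = 0.00203). COL4A1 and COL4A2, which encode the common chains of basement membrane collagen IV, fell by 0.59 (± 0.13, adjusted p = 0.0247) and by 0.46 (± 0.11, adjusted p = 0.0441). FN1, fibronectin, had a log2 change of 0.09 and COL5A2 one of -0.92 (adjusted p = 0.11). Of 21 integrins and adhesion receptors only ITGA11, a collagen-binding integrin chain, was called, and with library sizes from all reads 0 were. It had 88, 69.8 and 82.6 CPM with DMSO and 27.6, 23.6 and 29 CPM with dTAGV-1 (-1.58 ± 0.20, adjusted p = 0.000134).

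COL4A1 and COL4A2 were the only pair of the 88 called genes with starts within 500 kb of each other. They share a promoter on chromosome 13 and run in opposite directions, with RefSeq starts 127 bases apart, so the stretches before each start are shown together. They lie at chr13:110307158-110307357 and chr13:110307084-110307283, share 126 bases as reverse complements, and hold 1 GC box, in capitals, which is the same site read from either side.
COL4A1: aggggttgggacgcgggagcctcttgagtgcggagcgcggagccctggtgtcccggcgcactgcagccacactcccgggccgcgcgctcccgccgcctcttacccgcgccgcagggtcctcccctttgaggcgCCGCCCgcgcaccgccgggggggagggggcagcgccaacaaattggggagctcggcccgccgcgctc
COL4A2: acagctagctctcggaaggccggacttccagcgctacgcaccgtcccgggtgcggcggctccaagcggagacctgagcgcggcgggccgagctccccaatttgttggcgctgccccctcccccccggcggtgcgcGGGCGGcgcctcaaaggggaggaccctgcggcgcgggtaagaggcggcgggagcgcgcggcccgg
The deposited gene bounds of the pair overlap, and whether counting used the strand is not given in the sources used here, so reads of one may have been counted for the other. Of the called genes 2.27% had a called gene within 500 kb, against 3.17% of the other tested genes.

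Of 26 mesenchymal and lineage transcription factors, SNAI2 and TWIST2 fell, against 0.603% of all genes tested. With library sizes from all reads 1 of the 26 was called. SNAI2, or SLUG, a repressor of epithelial genes, had 25.1, 24.4 and 29.2 CPM with DMSO and 6.89, 9.57 and 7.15 CPM with dTAGV-1 (-1.70 ± 0.24, adjusted p = 0.000301). Its call held without each of the 6 libraries. TWIST2, a relative of TWIST1, had 51.6, 51.4 and 60.8 CPM with DMSO and 23.1, 28.3 and 38.8 CPM with dTAGV-1 (-0.83 ± 0.15, adjusted p = 0.00546), and its call was lost without dTAGV-1 replicate 1 or 2. ZEB1 (-0.45), SNAI1 (-0.45) and TWIST1 (0.29), regulators of the same programme, did not pass. Nor did OTX2 (1.07, adjusted p = 0.071) and PAX6 (0.72, adjusted p = 0.24), which act in the pigment epithelium lineage. Of 20 hypoxia genes only HIF1A, the regulated subunit of the hypoxia factor, fell. It had 552, 535 and 476 CPM with DMSO and 258, 219.7 and 335 CPM with dTAGV-1 (-0.94 ± 0.17, adjusted p = 0.00545). Its antisense neighbour HIF1A-AS2, which shares its span, had a log2 change of 0.54, and the call of HIF1A was lost without DMSO replicate 1 or dTAGV-1 replicate 1 or 2. The median of the hypoxia list was 0.0926. With library sizes from all reads it was 0.26 and 0 of the list's genes were called.

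Of all genes tested 0.632% passed, and for the short lists here 0 calls lies near that share. No gene passed in 10 of the 17 lists. These were immediate early genes (0 of 23, median -0.0511), YAP and TEAD targets (0 of 20, -0.158), ERK feedback genes (0 of 17, -0.156) and cohesin and its regulators (0 of 16, -0.0422). Mitotic genes (0 of 29, -0.086), G1 and S phase genes (0 of 22, 0.00161), p53 targets (0 of 19, 0.109), stress and heat shock genes (0 of 20, 0.133), cholesterol synthesis genes (0 of 17, 0.0619) and housekeeping genes that make and process RNA (0 of 25, -0.0128) also held no call. At unadjusted p under 0.05 these held 2, 5, 4, 0, 0, 1, 0, 0, 2 and 0 genes in the order given. Of all 13924 genes tested 779 had such a p. None of the 17 lists held a gene called higher, a call that 0.0287% of all genes tested had. With library sizes from all reads the medians were above 0 in each of these 10 lists, at 0.106, 0.00589, 0.0184 and 0.135 for the first 4, 0.0946 for mitotic genes and 0.15 for housekeeping genes.

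**Figure D3:**
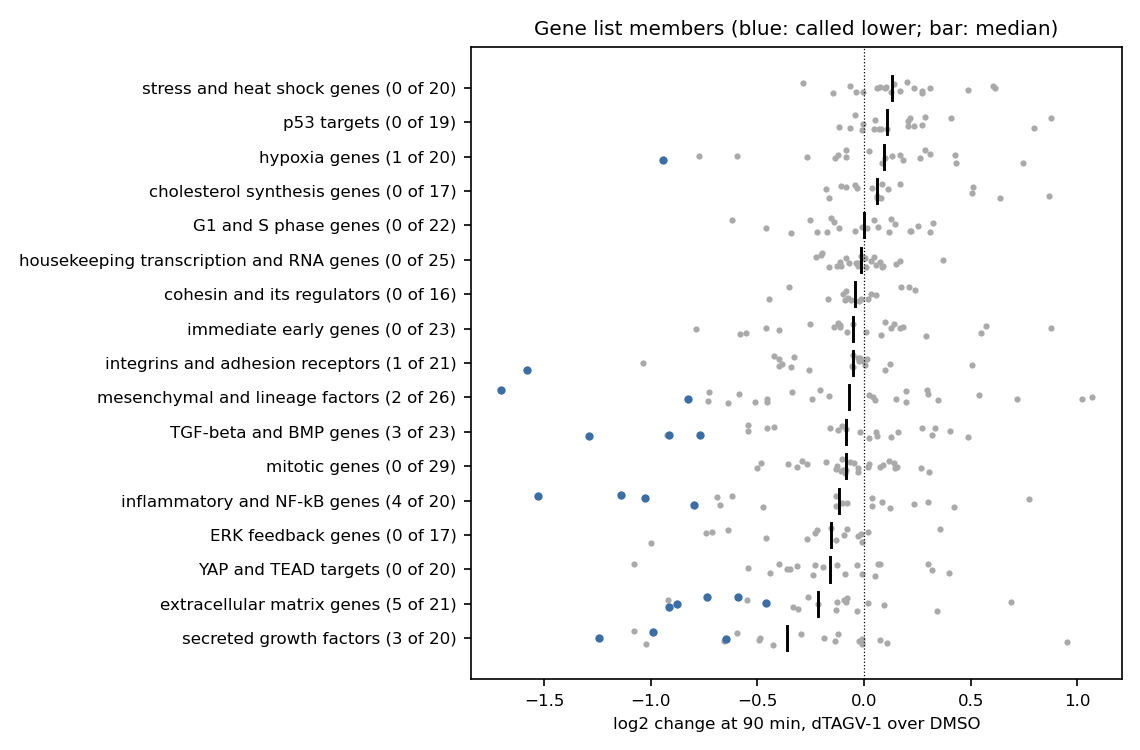
Log2 change at 90 min of each tested member of the 17 gene lists, with called members in blue, others in grey and the list's median as a bar. Called members lie in 7 lists, all left of 0, and the medians run from -0.362 for growth factors to 0.133 for stress genes, beside -0.00397 over all genes tested.

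The 4 rises were small in level. MAB21L1, a gene of the Mab-21 family that is needed for eye development, lies at chr13:35474182-35477209 within NBEA on the opposite strand. It had 19.5, 15 and 17 CPM with DMSO and 32, 32.5 and 38.4 CPM with dTAGV-1 (log2 change 1.02 ± 0.19, adjusted p = 0.00819). NBEA itself had a log2 change of -0.02. SBF2-AS1, an antisense RNA within SBF2, had 16, 20.2 and 23.1 CPM with DMSO and 28.1, 43 and 40 CPM with dTAGV-1 (0.93 ± 0.20, adjusted p = 0.0266), while SBF2 had -0.15. The other two, RP11-146I2.1 (1.37 ± 0.22) and RP11-89K21.1 (0.93 ± 0.22), are clone names outside the naming rule. MAB21L1 lost its call without DMSO replicate 2 or dTAGV-1 replicate 3, and SBF2-AS1 without DMSO replicate 1 or 2 or dTAGV-1 replicate 2 or 3.

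All reads gave fewer calls than new RNA. In all reads dTAGV-1 lowered 17 genes and raised 0, of 23242 tested (0.0731%; 963 with an unadjusted p under 0.05), and all 17 were among the 84. They were LPAR1, SNAI2, UGCG, TIPARP, CD274, ELL2, SOCS5, IL6 and TWIST2, and, outside the naming rule, ST6GAL2, SDC2, SLC4A7, MARCH3, SLC22A3, NR3C1, PAG1 and RP11-180C16.1. NR3C1, the glucocorticoid receptor, fell by 0.64 in all reads and by 0.85 in new RNA. LPAR1 had 356, 365 and 373 CPM of all reads with DMSO and 141, 167 and 161 CPM with dTAGV-1 (-1.22 ± 0.13, adjusted p = 0.000167). All 84 genes lay below 0 in all reads, with a median of -0.587, but so did 56.9% of all tested genes and 86.5% of those with an average log2 CPM of at least 6 (median -0.176). With TMM over the better covered genes, 24 genes were lower and 2 higher in all reads. The count of 17 became 2 without DMSO replicate 1, 2 without dTAGV-1 replicate 1, 7 without DMSO replicate 2, 2 without dTAGV-1 replicate 2, 3 without DMSO replicate 3 and 6 without dTAGV-1 replicate 3. Converted reads of a gene relative to its all reads differed for 13 genes, all lower. All 13 were among the 88, and 2 of the 88 changed sign by this measure.

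The same 84 genes were then read in the other libraries of the release series. All 24 shared 1 fit and its estimate of spread, so calls at these times are not independent of those at 90 min. At 30 min 66 of 84 lay below 0 (49.8% of all tested genes did), with a median of -0.078 and 0 called (0 of 13924 genes called by edgeR, 297 with an unadjusted p under 0.05). At 60 min 84 of 84 lay below 0 (50.5% of all), with a median of -0.486. There 12 were called lower, and these were all of the genes called lower at 60 min (0.0862% of genes tested). At 120 min 84 of 84 lay below 0 (49.1% of all), with a median of -0.956, and 78 were called (1.21% of genes tested), which is 92.9% of the 84 and 46.2% of the 169 called lower at 120 min. The 6 not called at 120 min were RNF24, DOCK10, SMURF1, RRAS2, SPATS2 and SEPT11, with log2 changes of -0.26 to -0.46 there. The 12 lower at 60 min were LPAR1, TMEM200A, UGCG, TIPARP, CD274, ELL2, IRAK2 and TGFBR2, with SDC2, PHLDB2, EPHA4 and EFNB2 from outside the rule, and MAB21L1 was the 1 gene higher there (0.00718%).

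The means of single genes over time are given as description, and no test compared the shapes between genes. LPAR1 stood at 498 ± 45.5 CPM with dTAGV-1 and 498 ± 21.8 CPM with DMSO at 30 min (SD, n = 3). With dTAGV-1 it was then 265 ± 36.2 CPM at 60 min, 161 ± 15.6 CPM at 90 min and 105 ± 7.66 CPM at 120 min, while DMSO libraries stayed between 453 and 644 CPM. TIPARP with dTAGV-1 was 165 ± 19.3 CPM at 60 min and 151 ± 28.5 CPM at 120 min, so that its log2 change was -1.22 at 60 min, -1.47 at 90 min and -1.31 at 120 min. IL6 rose with DMSO from 26.7 ± 11.3 CPM at 30 min to 64.3 ± 3.69 CPM at 120 min and stood at 24.4 ± 7.6 and 17.3 ± 1.51 CPM with dTAGV-1 at those times. MAB21L1 was at 35.5 ± 6.34 CPM with dTAGV-1 at 60 min and 34.3 ± 3.59 CPM at 90 min, against 16.8 ± 2.71 and 17.2 ± 2.28 CPM with DMSO. Of changes in the drug effect over time, those on either side of 90 min were tested. The effect at 90 min minus that at 60 min had 0 calls by edgeR (207 with an unadjusted p under 0.05, 1 call by DESeq2), and that at 120 min minus 90 min had 0 (165 unadjusted, 0 by DESeq2). For LPAR1 the first of these was -0.92 ± 0.17 (adjusted p = 0.34) and the second -0.70 ± 0.17 (adjusted p = 0.99992).

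**Figure D4:**
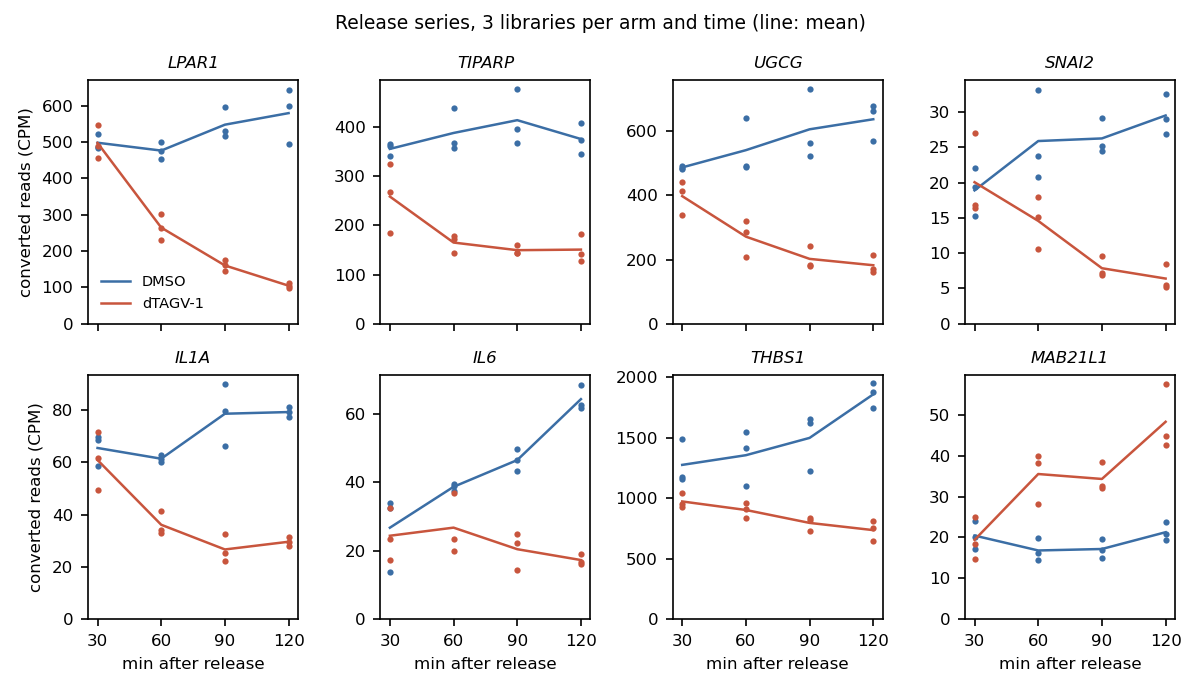
Converted reads in CPM, on a linear axis from 0, against min after release for 8 genes, with points for the 3 libraries per arm and time and lines through the means. The arms overlap at 30 min for LPAR1 (both means 498 CPM), and at 90 min all dTAGV-1 points lie below the DMSO points for the 7 genes that fell and above them for MAB21L1.

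Some of the 84 were genes whose new RNA grew in control cells after release. From 30 to 120 min with DMSO 221 genes were called higher and 108 lower of 13924 (1.59% and 0.776%). Of the 84, 9 were called higher (10.7%, against 2.71% of genes with an average log2 CPM of at least 6) and 60 lay above 0 (71.4%, against 59.1%). The 9 were IL6 (1.22 ± 0.24, adjusted p = 0.00967), SOCS5, ST6GAL2, ITGA11, COL4A1, THBS1, EFNB2, COL4A2 and TPM1. TRPC4, a cation channel gene, was the 1 gene called lower. These DMSO libraries do not include those at 90 min. With library sizes from all reads 3526 genes were called higher and 38 lower from 30 to 120 min, and without 1 library the 329 calls became 37 to 386, with 37 without DMSO replicate 3 at 120 min.

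The 84 genes were well covered, and their lengths lay near those of other well covered genes. Their median span was 90.4 kb, against 38.4 kb over all tested genes and 86.6 kb over those with an average log2 CPM of at least 6. A span over 100 kb was found in 45.2% of the 84, 24.7% of all and 44.3% of the better covered genes. Their median level was 7.40 on the log2 CPM scale, against 4.49 over all, and they lay on 18 chromosomes. The following genes of the 84 are outside the naming rule and were chosen after their values were seen, as examples and not as a group. TPM1, a tropomyosin that stabilises actin filaments, fell by 0.69 (± 0.11, adjusted p = 0.00163), and MYLK, myosin light chain kinase, by 0.64 (± 0.13, adjusted p = 0.0192). MICAL2, an enzyme that oxidises actin, had 705, 789 and 671 CPM with DMSO and 296, 379 and 324 CPM with dTAGV-1 (-1.11 ± 0.17, adjusted p = 0.000962). MYO10, an unconventional myosin of filopodia, fell by 0.64 (± 0.13, adjusted p = 0.0107) and MYO1E, another unconventional myosin, by 0.63 (± 0.13, adjusted p = 0.0179). PLAT, tissue plasminogen activator, fell by 1.08 (± 0.19, adjusted p = 0.00402) and SERPINE2, an inhibitor of such proteases, by 1.02 (± 0.19, adjusted p = 0.00815). CNTNAP3B and NUDT4 have near-identical copies in the genome, and how reads were split between copies is not given in the sources used here.

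In the mitosis series at 90 min, where the labels put the drug on before release as well, the 84 genes were read in separate libraries. In 1 fit of both series, 83 of 12864 genes tested were called lower from mitosis (0.645%) and 28 higher (0.218%), and 36 were called lower from release (0.28%). Of these, 16 were called lower in both, which is 44.4% of the 36 and 19.3% of the 83. Of the 82 lower from mitosis that were also tested in the fit of 24 release libraries, 24 were among the 84, which is 28.6% of the 84 and 29.3% of the 82. Of 83 genes tested there 75 lay below 0 (51.9% of all genes did), with a median of -0.474. SNAI2 (-3.19, adjusted p = 7.96e-06), IL6 (-2.74), HS3ST1 (-2.59), IL1A (-1.69), TIPARP (-1.56) and HIF1A (-1.53) were among the 24. CD274 (-0.20, adjusted p = 0.898), OXTR (-0.08, adjusted p = 0.972), LAMC1 (-0.00487, adjusted p = 0.999) and RNF152 (-0.20, adjusted p = 0.836) did not pass there, but the difference between the series did not pass for them either (adjusted p of 0.958, 0.759, 0.535 and 0.169). Both SBF2-AS1 (1.35) and MAB21L1 (1.12) were called higher there too. The effects themselves differed between the series for 5 of 12864 genes (0.0389%).

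The effect was lower from release for LPAR1, TRPC4 and EFNB2, and of these only LPAR1 fell in both series. LPAR1 had 552 to 653 CPM with DMSO and 157 to 194 CPM with dTAGV-1 in the release series, against 173 to 224 CPM and 123 to 154 CPM in the mitosis series (difference of effects -1.19 ± 0.19, adjusted p = 0.0167). Its control level was thus lower in the mitosis series, while its levels with dTAGV-1 lay nearer to each other. TRPC4 had 106 to 131 CPM with DMSO from release but 12.8 to 19.7 CPM from mitosis, where its log2 change was 0.46 (adjusted p = 0.502; difference -1.52 ± 0.25, adjusted p = 0.0167). EFNB2, which encodes the ligand ephrin-B2, fell from release and rose from mitosis, from 65.4 to 76.5 CPM with DMSO to 103 to 116 CPM with dTAGV-1. VEGFA went the other way. VEGFA, a growth factor for blood vessels, had a log2 change of -0.59 from release (adjusted p = 0.48) and of -2.22 from mitosis (adjusted p = 1e-06). The 2 series differ in the time with the drug and are separate sets of libraries, which cannot be told apart here.

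**Figure D5:**
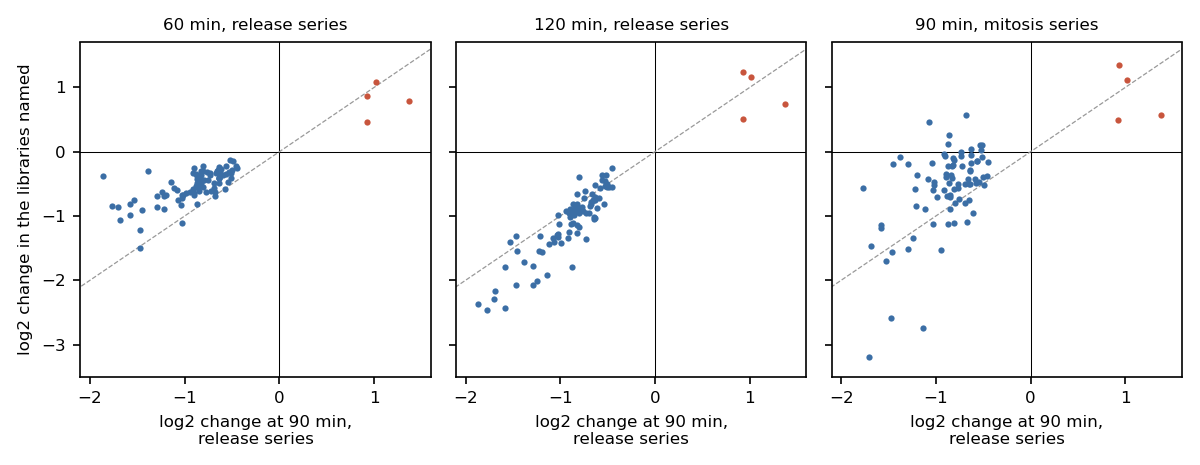
Log2 change of the 84 genes called lower (blue) and the 4 called higher (red) at 90 min from release on the x axis, against their log2 change at 60 min, at 120 min and at 90 min of the mitosis series on the y axes, with a dashed line of equality. All 84 lie below 0 at 60 and 120 min, and 75 of 83 do in the mitosis series, where the points are more scattered.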

How the data were processed

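Members and gene lists were chosen with earlier results of these data known. Per the file headers, the deposited files give for each gene the counts of reads with a conversion and of all reads, and a conversion rate, which is converted T as a fraction of T covered. Per the submitters' processing notes, HISAT, Picard and HTSeq were used on hg38, and versions, options and strand of counting are not given in the sources used here. Genes that a file does not list count as 0 there. Of 47417 genes listed, 154 (Y chromosome, X inactivation centre) were dropped, and 1 was added to gene starts.

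Converted reads of all 24 release libraries with 15 min of 4sU shared 1 fit in edgeR 4.0.16 (filterByExpr at 10 reads minimum and 15 in total, TMM, quasi-likelihood test, two-sided, Benjamini-Hochberg adjustment over all genes tested, called under 0.05). CPM are on TMM-scaled library sizes. Errors of log2 changes are the change over the square root of F. The mitosis series was fitted with the 90 min libraries, 14 in all. Positions are hg38. Some genes are not reported here.

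Named genes were the 15 largest falls and rises with an average log2 CPM of at least 3 and arms apart, clone names passed over, up to 3 called members per list, NIPBL, and called genes within 500 kb of a named one. Deviations of same-numbered libraries correlated at -0.0544, 0.202 and -0.28 at 90 min but at 0.302, 0.238 and 0.422 at 120 min, with pairs under 0.1 at 30 and 60 min too, so numbers were not taken to pair libraries at 90 min. Scripts were tested on simulated data. Alternatives were DESeq2 1.42.0, its size factors, all-read library sizes, no filter, a replicate block, the 6 libraries alone, calls with an absolute log2 change of 1 or more, all reads, converted relative to all reads, and each library left out. Chosen after seeing the data were TMM over genes with an average log2 CPM of at least 6, a fit without the shallowest library (0.420 M converted reads, dTAGV-1 at 30 min), and the motifs. R 4.3.3 with limma 3.58.1 ran the fits, and Python 3.11.15 with pandas 2.3.3 the descriptions.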

Additional observations from a re-analysis of the deposited data

Results flagged for a closer look

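The drug effect at 90 min differed between the release and the mitosis series for 5 genes, by a test of the difference itself in edgeR over both series. The difference, release minus mitosis on the log2 scale, was -1.194 for LPAR1, -1.5164 for TRPC4, -1.2358 for EFNB2 and 1.6324 for VEGFA. In VEGFA the level with DMSO from release ranged from 135 to 242 CPM, and DMSO replicate 3 was the low library. In TRPC4 the level with dTAGV-1 was 50.4 to 61.6 CPM from release and 16.4 to 23.6 CPM from mitosis, so both arms differed between the series. The 5 calls became 0 without release DMSO replicate 1, 1 without release dTAGV-1 replicate 1 or 3, 2 without release DMSO replicate 2, 1 without mitosis DMSO replicate 2, 2 without mitosis dTAGV-1 replicate 2 and 3 without mitosis dTAGV-1 replicate 4.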

How the results depend on the processing

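The 27 named genes other than NIPBL kept their direction under all 10 other settings. They also kept it without each of the 6 libraries, which arms that lie apart all but fixed in advance. Of the 27, 15 kept their call without each library, but only LPAR1 and CD274 (2 of 27) kept it under all 10 settings. The 88 calls in converted reads at 90 min became 80 with DESeq2's size factors, 104 without a filter, 141 by DESeq2's test, 58 in the 6 libraries alone, 28 at an absolute log2 change of at least 1, 6 with library sizes from all reads, 13 for each gene's converted reads against its all reads, 17 in all reads, 67 with TMM over the better covered genes, 80 without the shallowest library, and 36 to 59 without 1 library. Of the 104 calls without a filter, 55 were among the 88. The 17 calls in all reads became 30 with DESeq2's size factors, 4 without a filter, 110 by DESeq2's test, 26 with TMM over the better covered genes and 2 to 7 without 1 library. For the effect at 90 min minus that at 60 min, 0 became 10 without a filter and 1 by DESeq2's test, and for 120 min minus 90 min 0 became 10 without a filter. The 5 genes that differed between the series became 0 with library sizes from all reads, 28 without a filter, 12 by DESeq2's test and 0 to 6 without 1 library. The 329 genes that differed between 30 and 120 min of DMSO became 3564 with library sizes from all reads and 37 to 386 without 1 library. The difference in the percent of reads with a conversion, 0.338, was -0.15 to 0.748 without 1 library. NIPBL's log2 change of -0.01 was 0.164 with library sizes from all reads, 0.0190 without a filter, 0.175 against its own all reads, 0.00211 without the shallowest library, 0.0838 with TMM over the better covered genes and -0.118 to 0.0886 without 1 library. The cause of these changes was not tested.

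At 90 min not all same-numbered libraries deviated together, while at 120 min all 3 pairs did, and whether the numbers mark shared cultures is not given in the sources used here. With the replicate number as a block, the 88 calls became 183, which held all 88, the 17 in all reads became 31, the 0 for 90 min minus 60 min became 1, the 5 that differed between the series became 12, and the 329 over time with DMSO became 885. Depth limits genes with few reads, such as HS3ST1 and the 4 rises.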
